A study of Mus musculus with 12 samples.

Results

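Natriuretic peptides signal through cyclic GMP, and 7 genes of that route were followed through the injured sciatic nerve of the mouse. They are Nppc, which encodes the precursor of C-type natriuretic peptide, Corin, the receptors Npr1, Npr2 and Npr3, and the cGMP-dependent protein kinases Prkg1 and Prkg2. The genes were taken by symbol from the 30452 genes listed, all 7 were found, and all 7 were among the 19189 genes abundant enough to test. They had been picked because some of them differ between the genotypes, so their genotype differences are given below as a description, without a test. The same holds for the difference of those differences between regions. They were not picked by their differences between nerve regions within a genotype, and these are tested. The region contrasts use the same libraries as the genotype contrasts, however, so these tests are not independent of the choice. Earlier results of these data were also known.

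Tissue was taken 14 days after nerve injury from the bridge, the new tissue that spans the gap, and from the distal stump beyond it. Control mice (CTL) had the genotype P0-CreERT2:YFPfl/fl:Nf1+/+ and knockout mice (Nf1 KO) had P0-CreERT2:YFPfl/fl:Nf1fl/fl, so that both carried the Cre transgene and the floxed YFP reporter. In Nf1 KO, tamoxifen had induced the loss of Nf1 in myelinating Schwann cells through a Cre driven by the P0 promoter; the labels do not say whether CTL mice received tamoxifen, and they give no age or strain. Each of the 4 groups had 3 samples, each pooling 6 fragments of 0.5 mm from multiple mice, which makes 12 libraries.

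In these pathways the peptide binds a receptor whose inner part is a guanylyl cyclase, cGMP rises in the cell, and cGMP-dependent kinases phosphorylate their targets. Npr1 is the cyclase receptor for the atrial and B-type peptides and Npr2 the one for C-type peptide, whereas Npr3 binds all of these peptides and removes them. In sensory neurons, Nppc, Npr2 and Prkg1 are known for their part in the branching of axons as these enter the spinal cord.

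The stretches below show what the counted genes encode where the results turn on it. The coding sequence of Nppc, on chromosome 1, ends with the codons of the mature C-type peptide, and the capitals mark the pair of cysteine codons that close its ring. For the kinases on chromosomes 19 and 5 the first 60 coding bases are shown, with the second codon in capitals. It is a glycine codon in Prkg2, whose protein is known to be held at the membrane by a fatty acid on that residue. Prkg1 has transcripts of 2016 and 2061 coding bases that start differently, the longer one also with a glycine codon there, and a count per gene does not separate them. The sequences come from the GENCODE M21 transcripts.
Nppc: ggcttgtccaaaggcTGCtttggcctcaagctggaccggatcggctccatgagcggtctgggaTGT
Prkg1, 2016 coding bases: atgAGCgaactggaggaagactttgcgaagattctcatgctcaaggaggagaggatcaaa
Prkg1, 2061 coding bases: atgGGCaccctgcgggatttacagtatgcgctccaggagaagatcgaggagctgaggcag
Prkg2: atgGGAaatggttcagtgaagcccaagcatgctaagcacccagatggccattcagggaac

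Library totals ran from 18821445 to 38981819 counts, and 3 counts correspond to 0.0771 to 0.154 CPM (counts relative to library size, with TMM factors). Nf1 was lower in every Nf1 KO library than in any CTL library of its region, by log2 fold changes of −0.40 (SE 0.10) in the bridge and −0.60 (SE 0.10) in the distal stump. Schwann cell markers were present in all libraries, and their summed level was lower in Nf1 KO, at 3860 to 4830 CPM in the bridge and 3930 to 4700 CPM in the distal stump, against 6200 to 7860 and 5600 to 6290 CPM in CTL. CTL bridge libraries 1 and 3 stood apart by skeletal muscle markers, which summed to 8550 and 7490 CPM against 1150 CPM in CTL bridge library 2. Nf1 KO bridge library 1 stood apart by neutrophil markers (1240 CPM, against 74.6 and 102 CPM in the other libraries of its group). Nf1 KO distal library 1 stood apart by both, with 569 CPM of neutrophil markers against 229 and 221 CPM, and 2690 CPM of muscle markers against 14.5 and 94.7 CPM. In the same library 24.5% of the counts belonged to the non-coding gene Gm15662. Y-linked genes summed to 102 to 216 CPM in CTL and 39.8 to 147 CPM in Nf1 KO. In bulk tissue, fewer cells of a type and less RNA per cell cannot be told apart.

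**Figure D1:**
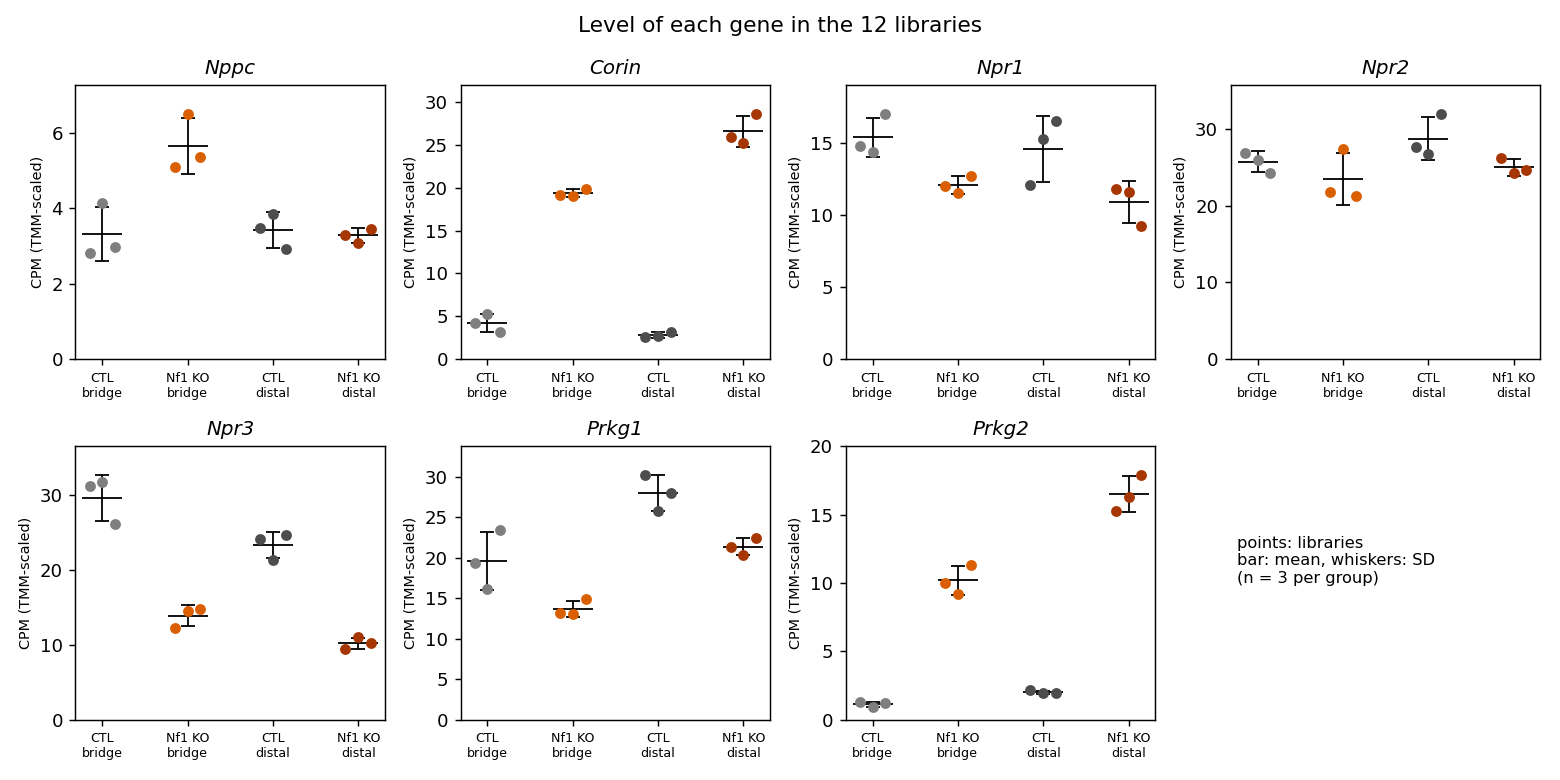
Level of each of the 7 genes in CPM (vertical axes, linear and starting at 0) in the 12 libraries, by group, with the mean and SD of 3 libraries. Prkg2 and Corin stand far higher in all Nf1 KO libraries, Npr3 stands lower in them, and Nppc is highest in the Nf1 KO bridge.

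Nppc (chromosome 1, 86666291 to 86670571) was highest in the bridge of Nf1 KO nerves. The CTL bridge had 2.82, 4.13 and 2.98 CPM (libraries 1 to 3, as in all lists here) and the Nf1 KO bridge 5.09, 6.49 and 5.37 CPM. In the distal stump the CTL libraries had 3.48, 3.85 and 2.91 CPM and the Nf1 KO libraries 3.30, 3.08 and 3.46 CPM. The Nf1 KO bridge libraries lay above all 9 others, and the other groups overlapped. The genotype difference was a log2 fold change of 0.77 (SE 0.18) in the bridge and −0.06 (SE 0.18) in the distal stump. In the bridge it was 0.46 without the muscle-rich CTL bridge libraries 1 and 3.

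Within Nf1 KO nerves Nppc was higher in the bridge than in the distal stump, with a log2 fold change of 0.79 (SE 0.18, edgeR adjusted p = 0.015). This call rests on the Nf1 KO bridge libraries that also gave the genotype difference above, so it is no separate finding. It was lost without Nf1 KO bridge library 2 (adjusted p = 0.0572, edgeR) or Nf1 KO distal library 2 (adjusted p = 0.0555, edgeR). In CTL nerves the region difference was −0.04 (SE 0.18, edgeR adjusted p = 0.929). These region effects differed by 0.83 (SE 0.25), which equals the difference of the genotype effects and is given without a test. Transcripts of the other ligands were scarce. Nppa, the precursor of atrial natriuretic peptide, did not exceed 1.21 CPM in any library and Nppb, that of the B-type peptide, did not exceed 0.673 CPM. Ostn, which encodes musclin, a peptide known to bind Npr3, did not exceed 0.563 CPM.

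Corin (chromosome 5, 72300025 to 72504473, minus strand) encodes a membrane serine protease best known in the heart, where it cuts the precursor of atrial natriuretic peptide to its active form. Its CTL bridge libraries had 4.25, 5.27 and 3.12 CPM and its Nf1 KO bridge libraries 19.2, 19.1 and 19.9 CPM. In the distal stump the values were 2.58, 2.69 and 3.16 CPM without and 25.9, 25.2 and 28.6 CPM with the knockout. All 6 Nf1 KO libraries exceeded all CTL libraries, and the CTL groups overlapped. The genotype difference was 4.61-fold in the bridge (log2 fold change 2.21, SE 0.16) and 9.42-fold in the distal stump (3.24, SE 0.17). Over all alternative settings the log2 fold change of Corin lay between 1.88 and 2.41 in the bridge and between 3.17 and 3.33 in the distal stump. Of the markers of heart muscle, Nkx2-5 was at 0 in all libraries and the list of 6 summed to 5.82 to 12.2 CPM in Nf1 KO and 7.51 to 19.9 CPM in CTL.

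The regional order of Corin ran in opposite directions in the genotypes, although neither difference passed the test. In CTL the bridge mean was above that of the distal stump (log2 fold change 0.58, SE 0.17, edgeR adjusted p = 0.052), and in Nf1 KO it was below (−0.46, SE 0.15, edgeR adjusted p = 0.0648). The CTL difference passed without CTL bridge library 3 (0.76, edgeR adjusted p = 0.00596). The Nf1 KO difference passed without CTL bridge library 2 (edgeR adjusted p = 0.026) or CTL bridge library 3 (edgeR adjusted p = 0.015). Neither belongs to the groups compared. Leaving a library out also renews the gene filter, the TMM factors, the shared estimate of spread and the adjustment. The genotype difference in the bridge minus that in the distal stump was −1.03 for Corin on the log2 scale (SE 0.22), given without a test for the reason above.

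The 300 bases around the start that RefSeq gives for Corin are printed because this gene differed most in the distal stump among the 7. They lie at chr5:72504491-72504790 on the minus strand of GRCm38.p6, upstream of the gene's start in GENCODE, which differs from that of RefSeq and is not in this window. They are written 5′ to 3′ in the direction of transcription.
Corin: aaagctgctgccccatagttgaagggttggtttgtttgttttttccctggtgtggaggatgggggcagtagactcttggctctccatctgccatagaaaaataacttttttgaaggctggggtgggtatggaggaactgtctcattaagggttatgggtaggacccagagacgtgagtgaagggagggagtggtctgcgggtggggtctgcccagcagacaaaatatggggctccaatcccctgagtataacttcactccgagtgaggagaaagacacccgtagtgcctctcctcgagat
Searched on both strands, this window held none of the motifs looked for. They were TGANTCA, found in 7.81% of 32851 promoter windows, TGACGTCA, found in 1.79%, GGGCGG, found in 35.7%, TATAAA, found in 13.6%, and GGAATG, found in 14.7%. None of these motifs can contain another. Of the 7 genes, 6 had a window of this kind. GGGCGG was found in those of Prkg1, Npr1 and Nppc, and TATAAA in that of Nppc. No capitals are used in the Corin window since no motif was found in it.

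Among the receptors, Npr3 was the one that was clearly lower in Nf1 KO. Npr3 (chromosome 15, 11839896 to 11907287) measured 31.2, 31.7 and 26.1 CPM in the bridge of CTL and 12.3, 14.5 and 14.8 CPM in that of Nf1 KO. The distal stump had 24.1, 21.4 and 24.7 CPM in CTL and 9.42, 11.0 and 10.3 CPM in Nf1 KO. None of the 4 groups overlapped, and the order from high to low was CTL bridge, CTL distal stump, Nf1 KO bridge and Nf1 KO distal stump. The Nf1 KO level was 0.469 of CTL in the bridge (log2 fold change −1.09, SE 0.10) and 0.438 of CTL in the distal stump (−1.19, SE 0.10). Markers of several cell types were lower in Nf1 KO as well. Perineurial markers were lower for 6 of 7 in the bridge and 5 of 7 in the distal stump, and summed to 544 to 592 and 458 to 511 CPM in Nf1 KO against 718 to 775 and 611 to 663 CPM in CTL. Myelin markers were lower for 8 of 9 and 6 of 9, and adipocyte markers for 7 of 7 in the bridge and 0 of 7 in the distal stump. Their part in the Npr3 difference was not tested.

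Npr3 was higher in the bridge than in the distal stump of Nf1 KO nerves (log2 fold change 0.44, SE 0.11, edgeR adjusted p = 0.0186). That call rested on single libraries. The edgeR adjusted p was 0.0634 without Nf1 KO bridge library 2, 0.0667 without bridge library 3, 0.0557 without distal library 1 and 0.059 without distal library 3. In CTL the difference was 0.34 (SE 0.10) and missed the threshold (edgeR adjusted p = 0.0604). It passed without CTL bridge library 3 (edgeR adjusted p = 0.0308) and with DESeq2 (adjusted p = 0.0408).

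Npr2 (chromosome 4, 43631935 to 43651244), the receptor for C-type peptide, stayed within narrow limits. It ranged from 24.2 to 26.9 CPM in the CTL bridge, 26.7 to 31.9 in the CTL distal stump, 21.3 to 27.4 in the Nf1 KO bridge and 24.2 to 26.2 in the Nf1 KO distal stump. Each group overlapped with its neighbour in the order of means. The genotype differences were −0.13 (SE 0.10) and −0.20 (SE 0.10) on the log2 scale. The region differences of −0.16 (SE 0.10, edgeR adjusted p = 0.361) in CTL and −0.09 (SE 0.10, edgeR adjusted p = 0.626) in Nf1 KO did not pass.

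Npr1 (chromosome 3, 90450591 to 90465866) was somewhat lower in Nf1 KO, with log2 fold changes of −0.35 (SE 0.13) in the bridge and −0.42 (SE 0.13) in the distal stump. Its libraries ranged from 14.4 to 17.0 CPM in the CTL bridge, 12.1 to 16.5 in the CTL distal stump, 11.5 to 12.7 in the Nf1 KO bridge and 9.22 to 11.8 in the Nf1 KO distal stump. Within each region the genotypes did not overlap. Its region differences of 0.08 in CTL (SE 0.13, edgeR adjusted p = 0.789) and 0.15 in Nf1 KO (SE 0.13, edgeR adjusted p = 0.509) did not pass.

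Per kilobase of the longest annotated transcript, Npr2 had the highest level of the receptors in all 4 groups, with mean CPM per kilobase of 6.42 to 7.84. Npr3 and Npr1 were close to each other in CTL and apart in Nf1 KO. In the CTL bridge Npr3 had 4.29 and Npr1 3.79 CPM per kilobase and in the CTL distal stump 3.40 and 3.59, with overlapping libraries in both. In the Nf1 KO bridge Npr3 had 2.02 and Npr1 2.98 CPM per kilobase, without overlap, and in the Nf1 KO distal stump 1.48 and 2.68. The counts of Npr2 per count of Npr3 were 0.821 to 0.928 in the CTL bridge, 1.15 to 1.29 in the CTL distal stump, 1.43 to 1.88 in the Nf1 KO bridge and 2.20 to 2.79 in the Nf1 KO distal stump. Antisense genes share exons with Corin, Npr1 and Npr2, and a divergent non-coding gene does so with Npr3. The kit keeps strand, but whether the counting used it is not stated in the labels.

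Prkg2 (chromosome 5, 98929773 to 99037351), the membrane-bound kinase known from bone growth and intestinal secretion, separated all 4 groups. Its CTL bridge libraries had 1.28, 0.917 and 1.2 CPM and its CTL distal libraries 2.16, 1.96 and 1.95 CPM. The Nf1 KO bridge libraries had 10.0, 9.20 and 11.3 CPM and the Nf1 KO distal libraries 15.3, 16.3 and 17.9 CPM. No groups overlapped, and the lowest Nf1 KO library was above the highest CTL library. The genotype difference was 9.00-fold in the bridge (log2 fold change 3.17, SE 0.15) and 8.14-fold in the distal stump (3.03, SE 0.14). Over all alternative settings it lay between 3.04 and 3.47 in the bridge and between 2.96 and 3.15 in the distal stump. Of 10 Schwann cell markers, 5 were lower in the Nf1 KO bridge and 3 in the Nf1 KO distal stump, and 0 were higher in either; their part in the Prkg2 difference was not tested. The genotype differences of Prkg2 in the regions were 0.14 apart (SE 0.19).

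Prkg2 was lower in the bridge than in the distal stump in both genotypes. The log2 fold change was −0.84 (SE 0.14, edgeR adjusted p = 0.00775) in CTL and −0.70 (SE 0.13, edgeR adjusted p = 0.00543) in Nf1 KO. Both calls held with any single library left out. The CTL call was lost with limma-voom (adjusted p = 0.0649) and when only the CTL libraries were fitted with edgeR (adjusted p = 0.0788). Beside these differences, Schwann cell markers were also lower in the bridge, 6 of 10 in CTL and 8 of 10 in Nf1 KO, while none was higher. Their part in the result was not tested.

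Prkg1 (chromosome 19, 30564489 to 31765033), the kinase that relaxes smooth muscle, shared the regional difference but not the genotype difference of Prkg2. The CTL bridge had 19.4, 16.2 and 23.4 CPM of it and the CTL distal stump 30.2, 25.8 and 28.0 CPM. The Nf1 KO bridge had 13.2, 13.1 and 14.9 CPM and the Nf1 KO distal stump 21.4, 20.4 and 22.5 CPM. Only the CTL bridge and the Nf1 KO distal stump overlapped among neighbours in the order of means. The genotype differences were −0.52 (SE 0.12) in the bridge and −0.39 (SE 0.12) in the distal stump on the log2 scale. The bridge value was −0.23 without the muscle-rich CTL bridge libraries.

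Prkg1 was lower in the bridge than in the distal stump by a log2 fold change of −0.51 (SE 0.12, edgeR adjusted p = 0.0242) in CTL and −0.64 (SE 0.12, edgeR adjusted p = 0.00613) in Nf1 KO. The Nf1 KO call held with any library left out. The CTL call was lost without CTL bridge library 1 (edgeR adjusted p = 0.0853), CTL bridge library 2 (edgeR adjusted p = 0.0606) or CTL distal library 1 (edgeR adjusted p = 0.096), and when only the CTL libraries were fitted (edgeR adjusted p = 0.0849). Of 9 mural cell markers, which label the vessel wall where Prkg1 is known to be abundant, 0 were lower and 2 higher in the bridge in each genotype at the threshold. The bridge means of the smooth muscle members Acta2 and Tagln were below those of the distal stump, for Acta2 79.0 against 109 CPM in CTL and 64.7 against 88.8 CPM in Nf1 KO, and for Tagln 135 against 179 and 116 against 172 CPM. The libraries of the regions overlapped for Acta2 in both genotypes and for Tagln in CTL. Means of Myh11 and Cnn1 were also lower in the bridge. Those of Rgs5, Cspg4, Pdgfrb, Notch3 and Des were higher there in both genotypes. The part of mural cells in the Prkg1 difference was not tested.

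Set against each other per transcript length, the kinases were unequal in CTL and near parity in Nf1 KO. Prkg2 made up 6.75 to 8.48% of the summed level per length in CTL bridge libraries and 8.93 to 9.65% in CTL distal libraries. It made up 49.6 to 51.7% in the Nf1 KO bridge and 50.2 to 52.9% in the Nf1 KO distal stump. The Nf1 KO bridge held 2.05 ± 0.217 CPM per kilobase of Prkg2 and 1.96 ± 0.141 of Prkg1 (SD, n = 3), and these libraries overlapped. A longer transcript counts as longer here whether or not it is the one in use, so that the shares depend on the annotated lengths of 4968 bases for Prkg2 and 6976 bases for Prkg1.

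**Figure D2:**
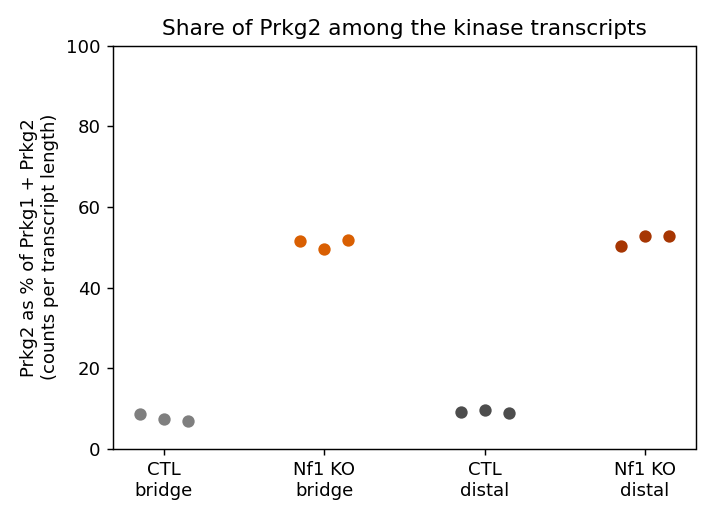
Prkg2 as a percentage of Prkg1 plus Prkg2 (vertical axis, counts per length of the longest transcript), 1 point per library, for the 4 groups. CTL libraries lie between 6.75 and 9.65% and Nf1 KO libraries between 49.6 and 52.9%.

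**Figure D3:**
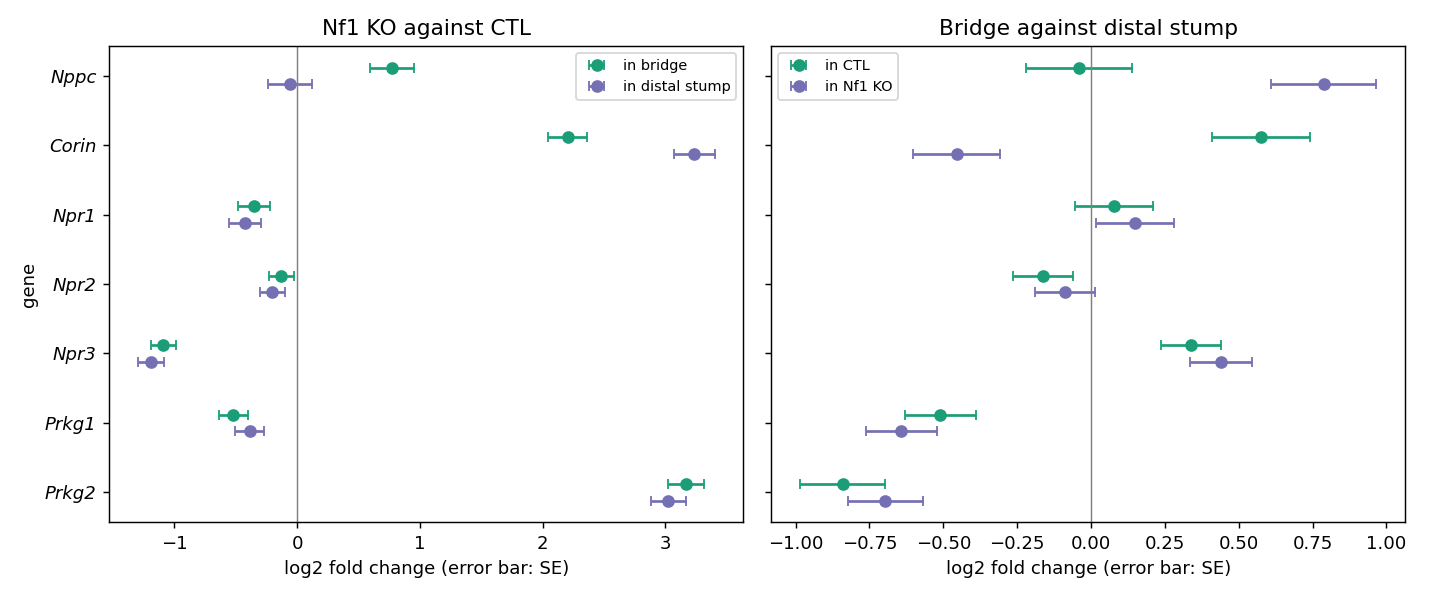
Log2 fold change of the 7 genes with its SE, for Nf1 KO against CTL in each region (left) and for bridge against distal stump in each genotype (right). The left panel has Prkg2 near 3 in both regions and Npr3 near −1, and the right panel has Corin on opposite sides of 0 in the genotypes.

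At an edgeR adjusted p under 0.05, 14.6% of all genes tested differed between the genotypes in the bridge (7.81% higher in Nf1 KO, 6.76% lower). In the distal stump 8.14% of all genes were called (4.45% higher, 3.69% lower). The libraries of the genotypes did not overlap for 34.4% of all genes in the bridge and 27.1% in the distal stump. The 7 genes were picked by these contrasts, so they are not counted against these shares. The region contrasts share libraries with the genotype contrasts, so the region counts of the 7 are not independent of that choice. For the regions, 2 of 7 were lower in the CTL bridge than in the CTL distal stump and none was higher, against 9.85% of all genes called (5.15% higher, 4.71% lower). In Nf1 KO, 2 were higher and 2 lower in the bridge, against 15.2% (7.78% higher, 7.41% lower). The median log2 fold change of the 7 was −0.04 in CTL and −0.09 in Nf1 KO, beside 0.00 over all genes in both. The libraries of the regions did not overlap for 3 of the 7 in CTL, where this holds for 29.6% of all genes, and for 5 in Nf1 KO, where it holds for 34%. The interaction had 0 calls (0%) with edgeR and 0 with limma-voom, although 2534 genes had an unadjusted p under 0.05, and 447 calls with DESeq2.

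Around these 7, lists of 71 other genes of cGMP signalling were followed, of which 58 could be tested. These lists too were chosen with earlier results of these data known, which limits what their shares and p-values can show. In the bridge, Nf1 KO differed from CTL in 8 of them, 3 higher and 5 lower (13.8%, against 14.6% of all genes). In the distal stump it differed in 7, 3 higher and 4 lower (12.1%, against 8.14%). Both counts leaned on single libraries. The bridge count was 2 without CTL bridge library 1, 4 without library 2, 1 without Nf1 KO bridge library 1 and 5 without library 2 or without library 3. The distal count was 4 without CTL bridge library 2 or CTL distal library 1, 2 without CTL distal library 3 or Nf1 KO distal library 2, and 1 without Nf1 KO distal library 3. A single gene kept its call in every such fit in each region, Mme in the bridge and Pde9a in the distal stump.

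Mme, which encodes neprilysin, a membrane peptidase known to degrade natriuretic peptides, fell in Nf1 KO. Bridge libraries had 86.7, 87.1 and 65.0 CPM in CTL and 37.7, 50.5 and 41.5 CPM in Nf1 KO, without overlap (log2 fold change −0.88, SE 0.16, edgeR adjusted p = 0.00635). In the distal stump it was lower by −0.63 (SE 0.16, edgeR adjusted p = 0.0412), a call that 7 of the 12 fits with a library left out did not keep. Mme is also made by Schwann cells, whose summed markers were lower in Nf1 KO, and their part in the result was not tested. Pcsk6, a protease known to activate the Corin protein, was lower in the Nf1 KO bridge (−0.82, SE 0.23, edgeR adjusted p = 0.0373), which 6 of the 12 fits did not keep.

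Of a list of 16 phosphodiesterase genes, which takes in non-catalytic subunits of the retinal enzyme, 15 were tested. Pde9a, which is selective for cGMP, rose in the Nf1 KO distal stump from 9.67, 10.1 and 11.0 CPM to 13.7, 13.6 and 13.8 CPM (log2 fold change 0.42, SE 0.08, edgeR adjusted p = 0.0112). Pde3a, which hydrolyses cAMP and is inhibited by cGMP, fell there (−0.40, SE 0.10, edgeR adjusted p = 0.0303), and Pde1a, which calcium and calmodulin activate, fell in the Nf1 KO bridge (−0.36, SE 0.10, edgeR adjusted p = 0.0429). With a library left out in turn, the Pde3a call was lost in 4 of 12 fits and the Pde1a call in 8. The exporter Abcc5 fell in both regions, by log2 fold changes of −0.29 (SE 0.07, edgeR adjusted p = 0.0241) and −0.30 (SE 0.07, edgeR adjusted p = 0.0297), and lost its call in 3 and 5 of the 12 fits.

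Among 22 tested substrates and partners of the kinases, Vasp and Rgs2 rose in both regions of Nf1 KO. Vasp, a regulator of actin filaments that both kinases phosphorylate, rose by 0.41 (SE 0.09, edgeR adjusted p = 0.0151) in the bridge and 0.36 (SE 0.09, edgeR adjusted p = 0.0369) in the distal stump. Rgs2, which dampens G protein signals, rose by 0.37 (SE 0.10, edgeR adjusted p = 0.0299) and 0.46 (SE 0.10, edgeR adjusted p = 0.0169). Leaving out a library ended the Vasp call in 2 and 7 of 12 fits and the Rgs2 call in 5 and 3. In the bridge Itpr1, a calcium release channel, rose by 0.25 (edgeR adjusted p = 0.0245) and Ppp1r12b, a subunit of myosin phosphatase, fell (−0.47, edgeR adjusted p = 0.0197), with 6 and 3 fits that did not keep the call. Sox9, a transcription factor that Prkg2 is known to act on in cartilage, fell in the distal stump (−0.51, edgeR adjusted p = 0.0466), which 10 of the 12 fits did not keep.

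The soluble guanylyl cyclase, which nitric oxide activates and which feeds the same kinases, differed by region and not by genotype at the threshold. Of its list, 6 genes were tested, and the same 3 subunits were higher in the bridge than in the distal stump in both genotypes, where 9.85% (CTL) and 15.2% (Nf1 KO) of all genes were called. Endothelial markers were higher in the bridge too, 2 of 8 in CTL and 7 of 8 in Nf1 KO, as were 5 and 4 of 9 fibroblast markers. Of 9 mural cell markers, 2 were higher and 0 lower in the bridge in each genotype. Among them the pericyte marker Rgs5 had means of 162 against 83.7 CPM in CTL and 172 against 79.1 CPM in Nf1 KO. Acta2 and Tagln had bridge means below those of the distal stump in both genotypes. The part of these cell types in the subunits' difference was not tested. Gucy1a3 had 21.9, 26.0 and 21.2 CPM in the CTL bridge against 12.4, 12.7 and 15.1 CPM in the CTL distal stump (log2 fold change 0.78, SE 0.12, edgeR adjusted p = 0.00493). In Nf1 KO it had 24.6, 19.8 and 23.6 CPM against 11.8, 9.84 and 11.1 CPM (1.06, SE 0.12, edgeR adjusted p = 0.000692). Gucy1a2 was higher by 0.79 in CTL (SE 0.12, edgeR adjusted p = 0.00493) and 0.93 in Nf1 KO (SE 0.12, edgeR adjusted p = 0.00113). Gucy1b3, the partner subunit of both, was higher by 0.60 in CTL (SE 0.13, edgeR adjusted p = 0.0168) and 0.82 in Nf1 KO (SE 0.13, edgeR adjusted p = 0.00243). The regions did not overlap for any of these subunits, and only the CTL call of Gucy1b3 was lost on leaving out a library, in 4 of 12 fits. Prkg1 and Prkg2 had the opposite regional order.

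**Figure D4:**
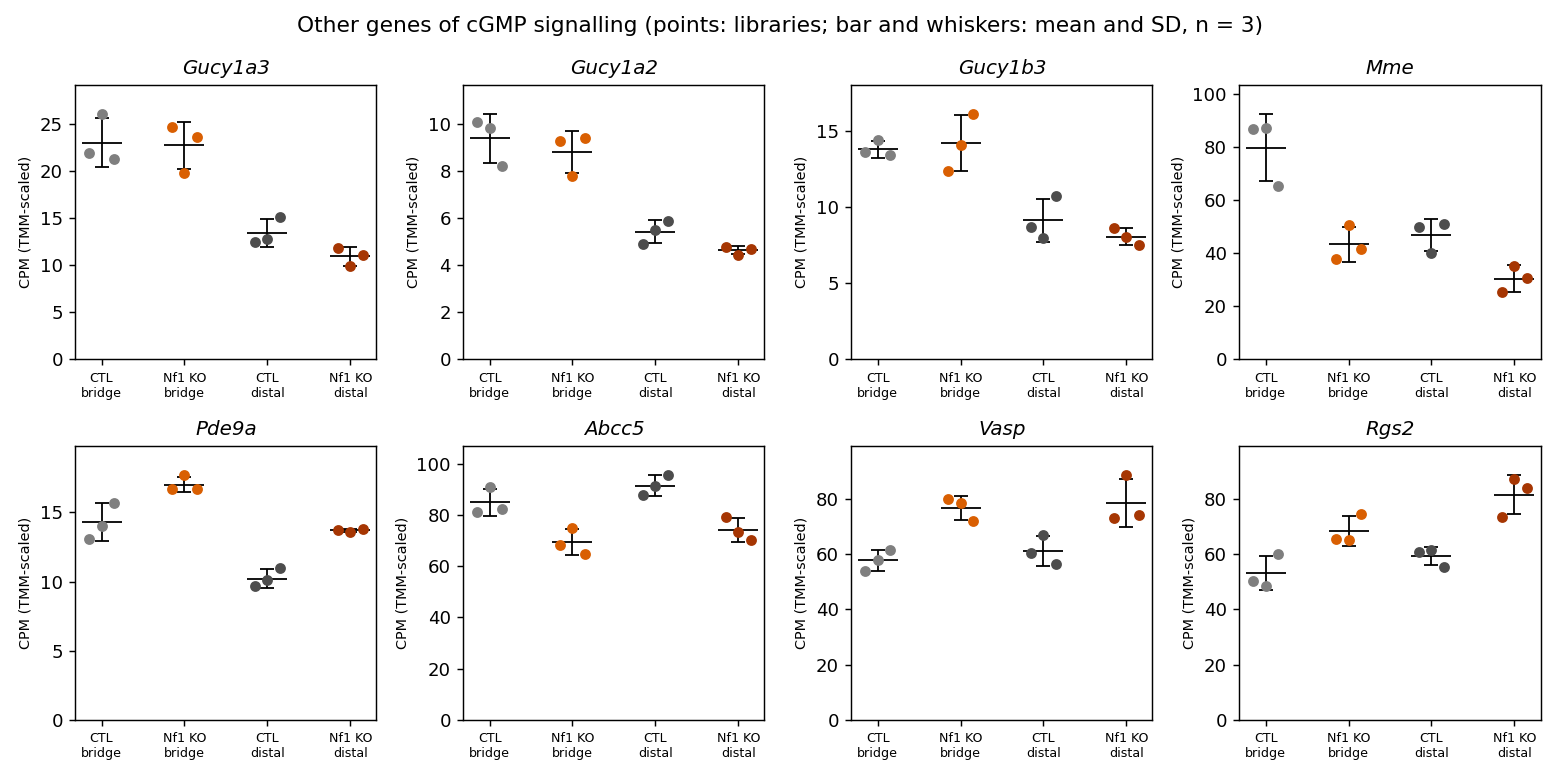
Level in CPM (vertical axes, linear from 0) of 8 other genes of cGMP signalling in the 12 libraries, with the mean and SD of 3 libraries per group. The cyclase subunits Gucy1a3, Gucy1a2 and Gucy1b3 are higher in the bridge in both genotypes, and Mme is lower in Nf1 KO.

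Over all these lists, 9 of the 58 tested genes differed between regions in CTL, 7 higher and 2 lower in the bridge (15.5%, against 9.85% of all genes). In Nf1 KO 10 differed, 8 higher and 2 lower (17.2%, against 15.2%). The CTL count was 3 without CTL bridge library 1 or CTL distal library 1 and 4 without library 2 of either group. Trpc6, a cation channel that Prkg1 is known to inhibit, was higher in the bridge by 0.92 in CTL (SE 0.21, edgeR adjusted p = 0.0248, lost in 5 of 12 fits) and 1.13 in Nf1 KO (SE 0.22, edgeR adjusted p = 0.00719). Gria1, a glutamate receptor subunit that Prkg2 phosphorylates in the brain, was lower in the bridge by −1.69 in CTL (SE 0.36, edgeR adjusted p = 0.0171, lost in 2 of 12 fits) and −1.94 in Nf1 KO (SE 0.36, edgeR adjusted p = 0.00546). Pde3a was higher in the Nf1 KO bridge by 0.88 (SE 0.10, edgeR adjusted p = 0.000665). Pde9a was higher in the bridge by 0.48 in CTL (SE 0.08, edgeR adjusted p = 0.00708) and 0.32 in Nf1 KO (SE 0.08, edgeR adjusted p = 0.0236, lost in 5 of 12 fits).

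Among the other regional calls in CTL, Mme was higher in the bridge by 0.76 (edgeR adjusted p = 0.0174, lost in 4 of 12 fits). Csrp2, a LIM-domain protein of smooth muscle, was higher by 0.38 (edgeR adjusted p = 0.041) and Sox9 lower (−0.50, edgeR adjusted p = 0.0453), each lost in 9 fits. In Nf1 KO, Itpr1 was higher in the bridge by 0.29 (edgeR adjusted p = 0.0109, lost in 1 fit) and Csrp1, a relative of Csrp2, was lower (−0.24, edgeR adjusted p = 0.0201, lost in 3 fits).

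The genes whose profile over the 12 libraries was most like that of Prkg2 or Corin were found by the root mean square difference of centred log2 CPM among 13148 genes. Ajap1, a membrane protein of adherens junctions, came first for both, at 0.478 log2 units from Prkg2 and 0.46 from Corin. Corin ranked 3 for Prkg2 and Prkg2 ranked 6 for Corin, at 0.576. Near Prkg2 were also Wfdc18 (0.571) and Cd72 (0.681), a receptor of B cells. Those of Corin were Gcg (0.536), the glucagon precursor, Fhdc1 (0.542), Add2 (0.563), a subunit of the membrane skeleton protein adducin, and Cd72 (0.566). Ajap1 measured 1.02, 2.65 and 1.29 CPM in the CTL bridge, 1.87, 2.46 and 1.41 in the CTL distal stump, 9.86, 8.59 and 9.13 in the Nf1 KO bridge and 13.7, 17.8 and 19.5 in the Nf1 KO distal stump. These genes were selected for having the genotype pattern of Prkg2 and Corin, so that their genotype differences are no separate finding.

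**Figure D5:**
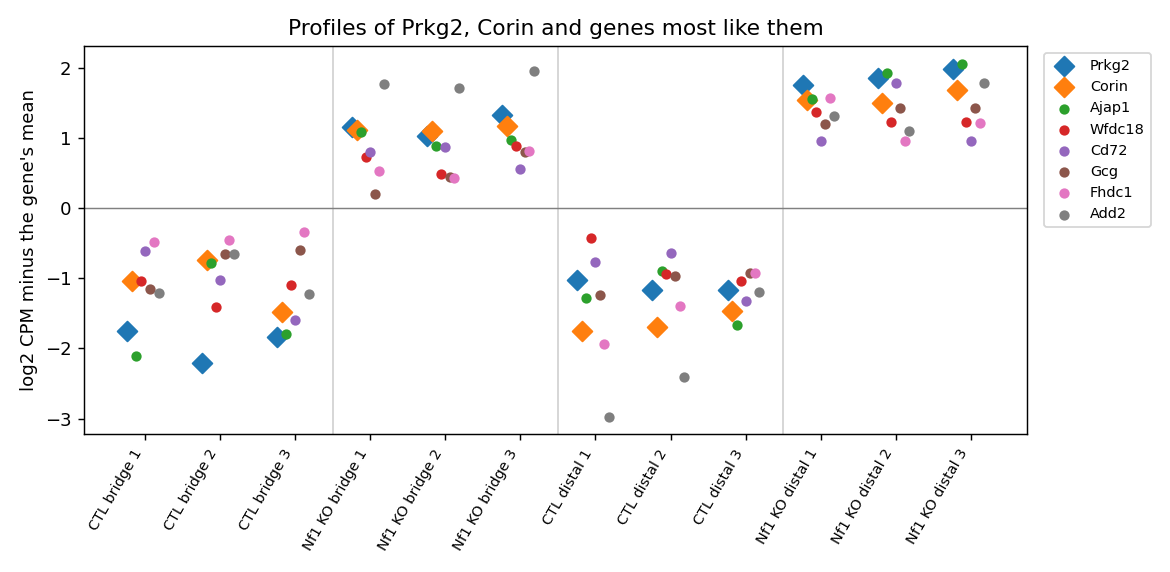
Log2 CPM minus the gene's own mean (vertical axis) in each of the 12 libraries for Prkg2 and Corin (diamonds) and 6 other genes most like them (circles). All 8 lie below their mean in CTL libraries and above it in Nf1 KO libraries.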

How the data were processed

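Total RNA of pooled sciatic nerve fragments was depleted of ribosomal RNA and made into directional libraries, per the labels' protocols. Tools named in the submitters' processing notes are cutadapt 1.2.1, CASAVA 1.8.2 and DESeq2, with the build mm10; an aligner or counter is not given in the sources consulted. Values as deposited are estimated counts per gene, whole numbers that the authors had not scaled, and they were used without rounding.

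All 12 libraries entered a single edgeR 4.0.16 model of the 4 groups in R 4.3.3 (TMM factors, filterByExpr, quasi-likelihood test, Benjamini-Hochberg adjustment over 19189 genes at 0.05). The SE is the log2 fold change divided by the root of the F statistic. DESeq2 1.42.0 and limma-voom (limma 3.58.1) were alternatives. The procedure was tested on counts simulated with the spread that edgeR fitted to these data. They held no libraries that stood apart, so this test cannot show how such libraries affect the calls. Levels are CPM with TMM scaling. With 3 libraries a group, p-values measure the spread between pooled samples.

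The 7 genes and all lists were chosen with earlier results of these data known. Named besides them were, per list and contrast, up to 4 called genes with the smallest p, the 5 genes most like Prkg2 and Corin with a mean log2 CPM of at least 1, the nearest tested protein-coding genes (up to 4 a side within 1 Mb), and Nf1. A gene that this rule names is not reported here. Coordinates and transcript lengths came from GENCODE M21 on GRCm38 (mm10), which holds 30123 of the 30452 IDs. Of 71 pathway genes, 70 were matched by symbol.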

Additional observations from a re-analysis of the deposited data

How the results depend on the processing

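With the replicate number as a block, the calls numbered 2464 (genotype, bridge), 1284 (genotype, distal stump), 1497 (region, CTL), 2463 (region, Nf1 KO) and 0 (interaction). The labels share only a number, which does not tell whether the same mice gave both regions. Over the genotype and region contrasts, deviations of same-numbered libraries correlated at −0.064 to 0.139. Between the regions of a genotype, where mice could be shared, they correlated at 0.007 to 0.139. Not every library correlated best with its own number. Y-linked genes were highest in library 1 and lowest in library 2 of every group. Apart from the block fit, regions were compared without pairing. Leaving out 1 library gave 1612 to 2947 calls (genotype, bridge), 880 to 1561 (genotype, distal stump), 681 to 2062 (region, CTL) and 1594 to 2892 (region, Nf1 KO), and pathway counts of 1 to 9, 1 to 7 and 3 to 10 for genotype in bridge, genotype in distal stump and region in CTL. For region in CTL it gave 0.37 to 0.76 for Corin, −0.23 to 0.059 for Nppc, −0.044 to 0.17 for Npr1, 0.28 to 0.42 for Npr3 and −0.66 to −0.39 for Prkg1. For region in Nf1 KO it gave −0.49 to −0.40 for Corin, 0.68 to 0.86 for Nppc and 0.38 to 0.52 for Npr3, and for the interaction −0.032 to 0.19 for Npr1, −0.051 to 0.14 for Npr2 and −0.26 to 0.017 for Prkg1.

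Without both muscle-rich CTL bridge libraries, where the lone CTL bridge library is assumed to vary like the other groups, 711 genes were called for genotype in the bridge and 506 for region in CTL, with 2, 3 and 3 pathway genes for genotype in bridge, genotype in distal stump and region in CTL. Prkg1 then stood at −0.23 and Prkg2 at 3.47 for genotype in the bridge, Corin at 0.90, Nppc at 0.27 and Npr1 at −0.024 for region in CTL, Corin at −0.46 for region in Nf1 KO, and Prkg1 at 0.15 in the interaction. Fitting only the compared groups gave 889 calls for the distal genotype contrast, 869 for region in CTL, 5, 3 and 4 pathway genes, −0.51 for Prkg1 and −0.83 for Prkg2 in region in CTL, and −0.46 for Corin in region in Nf1 KO. The interaction needs all libraries and was not run so. DESeq2 called 447 genes and 2 pathway genes (Pde3a and Csrp1) in the interaction and 12 pathway genes for genotype in the distal stump. It put the interaction value of Corin, not tested here, at −1.02 and passed Corin at 0.57 for region in CTL and at −0.46 for region in Nf1 KO, and Npr3 at 0.33 for region in CTL. With limma-voom Corin passed at −0.45 for region in Nf1 KO and Prkg2 missed the threshold at −0.85 for region in CTL. A covariate for Y-linked genes, added after seeing the data, left 3 pathway genes for genotype in the distal stump, and Prkg2 at 3.27 and 3.15 and Corin at 2.15 and 3.17 for genotype in bridge and distal stump. Except where the report or a sentence above names one, the cause of these shifts was not tested. At 1 to 2 CPM, Prkg2 in CTL rests on 25 to 76 counts a library, which limits the precision of its fold changes.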

Other observations

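Prkg2 and Corin lie on chromosome 5 with 26.4 Mb between them. The genotype differences of their tested protein-coding neighbours within 1 Mb were read from the same fit. Over all genes, 14.6% were called in the bridge and 8.14% in the distal stump. Of 8 neighbours of Prkg2, 1 was called in each region and none was higher in Nf1 KO at the threshold. Fgf5, a growth factor known from hair growth, was lower in the bridge (log2 fold change −0.85, SE 0.25, edgeR adjusted p = 0.0488) and Bmp3, a bone morphogenetic protein, in the distal stump (−0.71, SE 0.14, edgeR adjusted p = 0.0117). Gm11111, 376 kb away, was at 0 in both Nf1 KO groups and had means of 1.12 and 4.75 CPM in the CTL bridge and distal stump, and was not called (edgeR adjusted p = 0.238 and 0.18). Of 6 neighbours of Corin, 1 was called in the bridge and 2 in the distal stump. Nfxl1, whose gene begins 8.83 kb away, was higher in both regions (0.40, SE 0.09, edgeR adjusted p = 0.0126 in the bridge and 0.0195 in the distal stump). Nipal1, known as a magnesium transporter, was higher in the distal stump (0.44, SE 0.09, edgeR adjusted p = 0.0157).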
